A study of Mus musculus with 20 samples.

Results

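The genes described here are 39 named members of the Wnt pathway, measured by RNA-seq in cultured mouse cardiac fibroblasts. They are the 39 of 55414 identifiers of the count table that match a list of 9 ligands, 11 receptors and co-receptors, 8 secreted antagonists, 4 TCF/LEF factors, 4 feedback inhibitors or targets and 3 R-spondins. Wnt ligands bind a Frizzled receptor together with the co-receptor Lrp5 or Lrp6 at the cell surface. In the branch called canonical, this stops the breakdown of beta-catenin, which then enters the nucleus and acts on genes through TCF/LEF factors. Other Wnt ligands act mainly through cell polarity and calcium signalling. In the heart the pathway has been studied in development and in the scarring response of fibroblasts. Secreted antagonists capture the ligands or block the co-receptors, and feedback genes such as Axin2 are switched on by beta-catenin itself.

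The 20 libraries form 5 groups of 4 cultures of passage 2 fibroblasts. The labels describe the cells as Hyal2 fl/fl in the treatment protocol and as wild type C57BL/6J under genotype, and give no age. Hyal2 encodes a hyaluronidase, which cuts hyaluronan, a sugar polymer of the matrix. Cre_TGFB cultures received a Cre adenovirus, which deletes the floxed Hyal2 gene, and TGFB, a cytokine that turns fibroblasts into matrix-producing myofibroblasts. GFP_TGFB cultures received a GFP adenovirus and TGFB. Cre, Hyal2 and GFP cultures received a Cre, a Hyal2 overexpression or a GFP adenovirus, with no TGFB named in their labels. All cultures were starved of serum for 24 h, exposed to virus for 5 h and given fresh medium with growth factor at 20 ng/mL for 48 h. The protocol names bFGF and TGFB together for that medium, and its wording does not settle whether the cultures without TGFB received bFGF. Each comparison of cultures with and without TGFB may therefore also be a comparison with bFGF. In each group replicates 1 and 2 are female and replicates 3 and 4 male, and a replicate number is taken to name the same cell isolate in every group.

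Library totals were 38.62 to 104.8 M counts. Levels are given as CPM, which are counts scaled to library size with TMM factors, and a count of 3 corresponds to 0.0285 to 0.0813 CPM depending on the library, which covers counting error only. Hyal2 lay at 5.37 to 9.14 CPM in Cre_TGFB, 33.4 to 41.1 in GFP_TGFB, 7.62 to 13.5 in Cre, 399 to 1419 in Hyal2 and 36.6 to 44.5 in GFP cultures, so each virus moved Hyal2 in the direction of its label. All 11 fibroblast markers were detected, with summed levels of 39740 to 49330 CPM with TGFB and 43960 to 71170 CPM without it. Of the 39 Wnt genes, 36 had enough counts to be tested. Wnt16, a ligand studied in bone, Dkk1, an inhibitor of Lrp5 and Lrp6, and Notum, an enzyme that removes the lipid from Wnt ligands, did not: their highest values were 0.0738, 0.0733 and 0.291 CPM.

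TGFB changed most of the Wnt genes. The members were chosen with earlier results of these data known, so their shares beside those of all genes are a description. In GFP_TGFB over GFP, 29 of the 36 tested members (80.6%) passed edgeR's test (p adjusted by Benjamini-Hochberg over the 15624 genes tested, threshold 0.05), against 55.3% of all genes tested. Of these, 10 rose (27.8% of the members, against 26.6% of all genes) and 19 fell (52.8%, against 28.6%). In Cre_TGFB over Cre, 29 of 36 members were called as well, against 56.5% of all genes, and the same 10 rose (27.5% of all genes) and the same 19 fell (29% of all genes). With the replicate block, which takes out differences between isolates, 30 of 36 members were called in each pair, 10 higher and 20 lower, against 61.9% of all genes (29.8% higher and 32.1% lower) in the GFP pair and 63.6% (31% and 32.6%) in the Cre pair. The median log2 fold change of the 36 members was -0.55 in the GFP pair, against -0.024 over all genes, and -0.50 in the Cre pair, against -0.0042. The median size regardless of sign was 1.34 for the members and 0.38 for all genes in the GFP pair. The risers were the ligands Wnt2, Wnt5a, Wnt9a, Wnt10b and Wnt11, the receptors Fzd6 and Fzd9, the antagonist Dkk2 and the factors Lef1 and Tcf7. The fallers were Wnt4, Wnt5b, 6 further Frizzled receptors, both co-receptors, 6 of 7 tested antagonists, Tcf7l1, Tcf7l2 and Rspo2. edgeR without the replicate block called Wnt2b, Fzd3, Axin2, Nkd1, Nkd2, Rspo1 and Rspo3 in neither pair; of these, Nkd2 was called by edgeR with the block in both pairs and by DESeq2 in the GFP pair.

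The libraries of the groups did not overlap for 9 of the 10 risers and 18 of the 19 fallers in the GFP pair (24.6% and 25.5% of all genes), the exceptions being Fzd9 and Wnt5b. In the Cre pair the groups did not overlap for all 10 risers and all 19 fallers (25% and 26.3% of all genes). Scaling by library totals alone moved the median log2 fold change of all genes to -0.13 in the GFP pair, and the share of higher genes among all called ones to 36.3%, against 48.2% with TMM; under it 10 members rose and 20 fell, the addition being Nkd2. These are bulk cultures, so fewer cells of a type and less RNA per cell cannot be told apart.

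**Figure D1:**
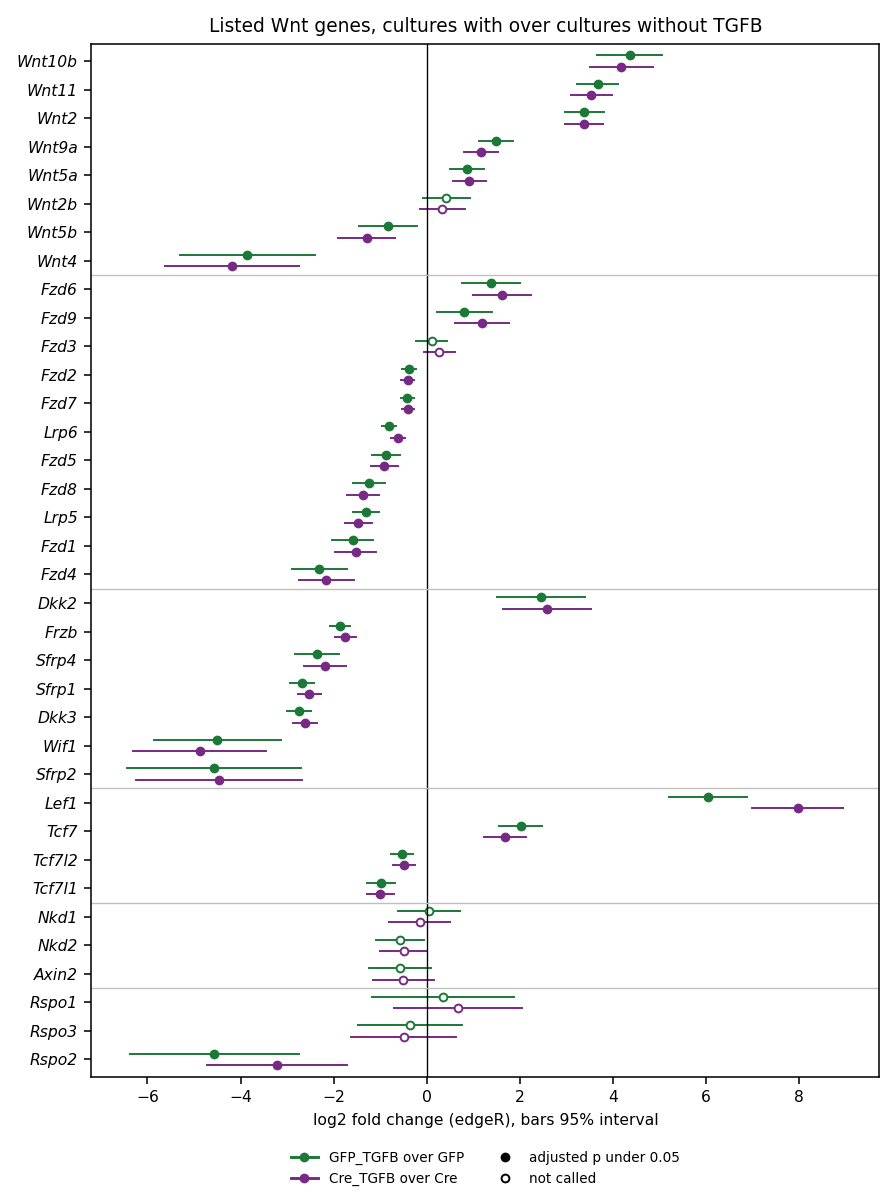
Log2 fold change of each tested Wnt gene (horizontal axis, bars are 95% intervals from edgeR) in GFP_TGFB over GFP (green) and Cre_TGFB over Cre (purple), n = 4 cultures a group, with grey lines between ligands, receptors, antagonists, TCF/LEF factors, feedback genes and R-spondins. Filled points passed an adjusted p under 0.05, and the 10 risers and 19 fallers have the same sign in both pairs.

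Promoter sequences of RefSeq (build GRCm38.p6, 250 bases before to 50 after the most upstream listed start) were found for 26 of the 39 members. They were searched on both strands for a TCF/LEF motif (CTTTGAT), the SMAD element through which TGFB signalling reaches DNA (GTCTG) and the AP-1 motif (TGANTCA). None of these overlaps another in the 4 printed sequences. The TCF/LEF motif was in 1 of the 26, the promoter of Wnt11, against 3.73% of all 32851 promoters of the same length. The SMAD element was in 12 of the 26, against 49.6% of all promoters, and the AP-1 motif in 1, Wnt5b, against 7.81%. Among members called in GFP_TGFB over GFP, the SMAD element was in 3 of 8 risers and 4 of 11 fallers with a promoter. Shown are Wnt11 (chr7:98834862-98835161, plus strand), as the member with a TCF/LEF match, Lef1 (chr3:131110047-131110346, plus strand), as the riser with the largest change, Fzd1 (chr5:4758167-4758466, minus strand), as a faller with 2 SMAD matches, and Axin2 (chr11:108920099-108920398, plus strand), as the feedback target. They were chosen with their values known. Each is written 5′ to 3′ along the gene's strand, and capitals mark the TCF/LEF match in Wnt11 and the SMAD matches in the others.
Wnt11: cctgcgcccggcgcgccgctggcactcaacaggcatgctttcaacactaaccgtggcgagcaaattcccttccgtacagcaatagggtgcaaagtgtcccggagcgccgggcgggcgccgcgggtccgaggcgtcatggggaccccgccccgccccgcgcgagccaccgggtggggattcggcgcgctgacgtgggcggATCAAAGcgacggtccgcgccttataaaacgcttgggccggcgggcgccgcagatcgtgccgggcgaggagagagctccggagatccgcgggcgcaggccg
Lef1: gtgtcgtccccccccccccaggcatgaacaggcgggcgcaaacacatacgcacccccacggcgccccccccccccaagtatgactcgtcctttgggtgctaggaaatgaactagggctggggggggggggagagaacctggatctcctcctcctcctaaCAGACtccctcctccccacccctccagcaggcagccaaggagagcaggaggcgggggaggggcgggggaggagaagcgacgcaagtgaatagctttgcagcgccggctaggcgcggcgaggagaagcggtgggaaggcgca
Fzd1: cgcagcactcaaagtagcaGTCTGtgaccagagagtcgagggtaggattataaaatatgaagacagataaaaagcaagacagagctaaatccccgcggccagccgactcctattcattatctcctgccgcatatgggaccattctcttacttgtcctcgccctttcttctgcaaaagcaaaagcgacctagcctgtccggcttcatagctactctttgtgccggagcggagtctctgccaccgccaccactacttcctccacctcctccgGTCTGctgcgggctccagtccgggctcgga
Axin2: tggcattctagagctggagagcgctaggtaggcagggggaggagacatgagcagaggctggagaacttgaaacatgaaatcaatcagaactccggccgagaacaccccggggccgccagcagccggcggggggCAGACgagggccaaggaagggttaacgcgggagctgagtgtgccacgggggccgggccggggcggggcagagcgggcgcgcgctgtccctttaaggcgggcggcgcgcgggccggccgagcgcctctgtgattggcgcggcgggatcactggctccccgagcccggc
The Wnt11 match begins 51 bases before the listed start. The SMAD match begins 91 bases before the start in Lef1 and 117 bases before it in Axin2. A match is a description of letters, not of binding.

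Ligands changed in both directions, with 5 of 8 tested members higher (62.5%) and 2 lower (25%) in each pair. Of all genes, 26.6% were higher and 28.6% lower in the GFP pair, and 27.5% and 29% in the Cre pair. Wnt10b (ENSMUSG00000022996), a ligand usually classed as canonical, had 6.87, 5.79, 8.78 and 8.76 CPM in Cre_TGFB cultures and 6.8, 5.27, 11.2 and 9.5 CPM in GFP_TGFB cultures. Without TGFB, Wnt10b had 0.493, 0.298, 0.362 and 0.499 CPM in Cre cultures, 0.271, 0.267, 0.279 and 0.452 CPM in Hyal2 cultures and 0.244, 0.228, 0.383 and 0.796 CPM in GFP cultures. Every library with TGFB lay above every library without it, and in both TGFB groups the male libraries lay above the female ones. Wnt10b rose in both pairs of groups, at log2 fold changes of 4.35 (edgeR adjusted p = 3.1e-09, SE 0.34) in GFP_TGFB over GFP and 4.18 (adjusted p = 3.58e-09, SE 0.32) in Cre_TGFB over Cre. Wnt11 (ENSMUSG00000015957), a ligand of the polarity branch whose promoter is printed above, had 52.4, 50.7, 39.3 and 40 CPM in Cre_TGFB cultures and 56.8, 44.1, 45.7 and 44.3 CPM in GFP_TGFB cultures. Without TGFB, Wnt11 had 4.52, 5, 3.89 and 2.26 CPM in Cre cultures, 4.21, 4.63, 4.77 and 2.87 CPM in Hyal2 cultures and 3.51, 4.85, 3.31 and 3.23 CPM in GFP cultures. Its levels with TGFB (39.3 to 56.8 CPM) lay far above those without it (2.26 to 5 CPM). Wnt11 rose in both pairs of groups, at log2 fold changes of 3.67 (edgeR adjusted p = 6.71e-11, SE 0.21) in GFP_TGFB over GFP and 3.53 (adjusted p = 9.63e-11, SE 0.21) in Cre_TGFB over Cre.

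Wnt2 (ENSMUSG00000010797), another ligand of the canonical branch, had 12.6, 11.1, 10.5 and 9.82 CPM in Cre_TGFB cultures and 14.3, 10.5, 10.2 and 11.7 CPM in GFP_TGFB cultures. Without TGFB, Wnt2 had 0.854, 1.3, 0.99 and 1.1 CPM in Cre cultures, 0.911, 0.849, 0.902 and 0.498 CPM in Hyal2 cultures and 0.822, 1.53, 0.901 and 1.15 CPM in GFP cultures. The groups with and without TGFB did not overlap, and the lowest value was that of Hyal2 replicate 4. Wnt2 rose in both pairs of groups, at log2 fold changes of 3.39 (edgeR adjusted p = 8.94e-11, SE 0.20) in GFP_TGFB over GFP and 3.37 (adjusted p = 8.46e-11, SE 0.20) in Cre_TGFB over Cre. Wnt9a (ENSMUSG00000000126), known for its part in joint and skeletal development, had 15.2, 13.8, 17.1 and 16.5 CPM in Cre_TGFB cultures and 15.7, 12.7, 21.3 and 19.2 CPM in GFP_TGFB cultures. Without TGFB, Wnt9a had 8.1, 8.47, 5.31 and 5.97 CPM in Cre cultures, 7.73, 7.78, 5.69 and 6.06 CPM in Hyal2 cultures and 7.11, 6.81, 4.84 and 5.85 CPM in GFP cultures. The male isolates were the lowest in all 3 groups without TGFB and the highest in both groups with it. Wnt9a rose in both pairs of groups, at log2 fold changes of 1.48 (edgeR adjusted p = 8.9e-07, SE 0.18) in GFP_TGFB over GFP and 1.16 (adjusted p = 1.32e-05, SE 0.17) in Cre_TGFB over Cre.

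Wnt5a (ENSMUSG00000021994), the main ligand of the polarity and calcium branch, had 51.8, 48.5, 53.1 and 50.8 CPM in Cre_TGFB cultures and 52, 50.6, 53.3 and 51 CPM in GFP_TGFB cultures. Without TGFB, Wnt5a had 29.8, 33.3, 22.2 and 23.2 CPM in Cre cultures, 29.4, 41.6, 23.8 and 23.9 CPM in Hyal2 cultures and 31.4, 36.4, 23.1 and 22.7 CPM in GFP cultures. With TGFB the 8 libraries lay close together (48.5 to 53.3 CPM), whereas without it the male isolates lay below the female ones in each group. Wnt5a rose in both pairs of groups, at log2 fold changes of 0.86 (edgeR adjusted p = 2.8e-04, SE 0.17) in GFP_TGFB over GFP and 0.91 (adjusted p = 1.56e-04, SE 0.17) in Cre_TGFB over Cre. A smaller group of ligands went the other way. Wnt4, a ligand of kidney and gonad development, had 0.135, 0.152, 0.153 and 0.0977 CPM in GFP_TGFB cultures, against 1.22, 0.884, 3.33 and 2.65 CPM in GFP cultures. It fell to a level of a few counts with TGFB, with 26 counts over the 4 GFP_TGFB libraries against 382 over the GFP libraries, and a log2 fold change of -3.85 (edgeR adjusted p = 1.04e-04, SE 0.69). The Cre pair gave it -4.18 (edgeR adjusted p = 3.74e-05, SE 0.68) on the log2 scale.

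Wnt5b, the close relative of Wnt5a, had 1.25, 1.05, 0.867 and 1.39 CPM in GFP_TGFB cultures, against 1.71, 1.34, 2.68 and 2.44 CPM in GFP cultures, and these ranges overlapped. Its log2 fold change was -0.83 (edgeR adjusted p = 0.0231, SE 0.30) in the GFP pair and -1.3 (edgeR adjusted p = 0.00103, SE 0.30) in the Cre pair. In the female isolates alone it was called in neither pair (-0.41, edgeR adjusted p = 0.228, and -0.60, adjusted p = 0.0601). In the GFP pair it was no longer called without GFP_TGFB replicate 2 or 3 or GFP replicate 3 or 4 (edgeR adjusted p = 0.0554 to 0.0835), nor without replicate 1, 3 or 4 of all groups (0.0536 to 0.154). Wnt2b, a relative of Wnt2, averaged 0.607 ± 0.128 CPM in GFP_TGFB and 0.452 ± 0.103 CPM in GFP cultures (SD, n = 4 each), with a log2 fold change of 0.42 (edgeR adjusted p = 0.156, SE 0.24). Wnt16 had 2 counts in all in each TGFB group, against 13 in Cre, 8 in Hyal2 and 9 in GFP cultures, and was not tested.

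**Figure D2:**
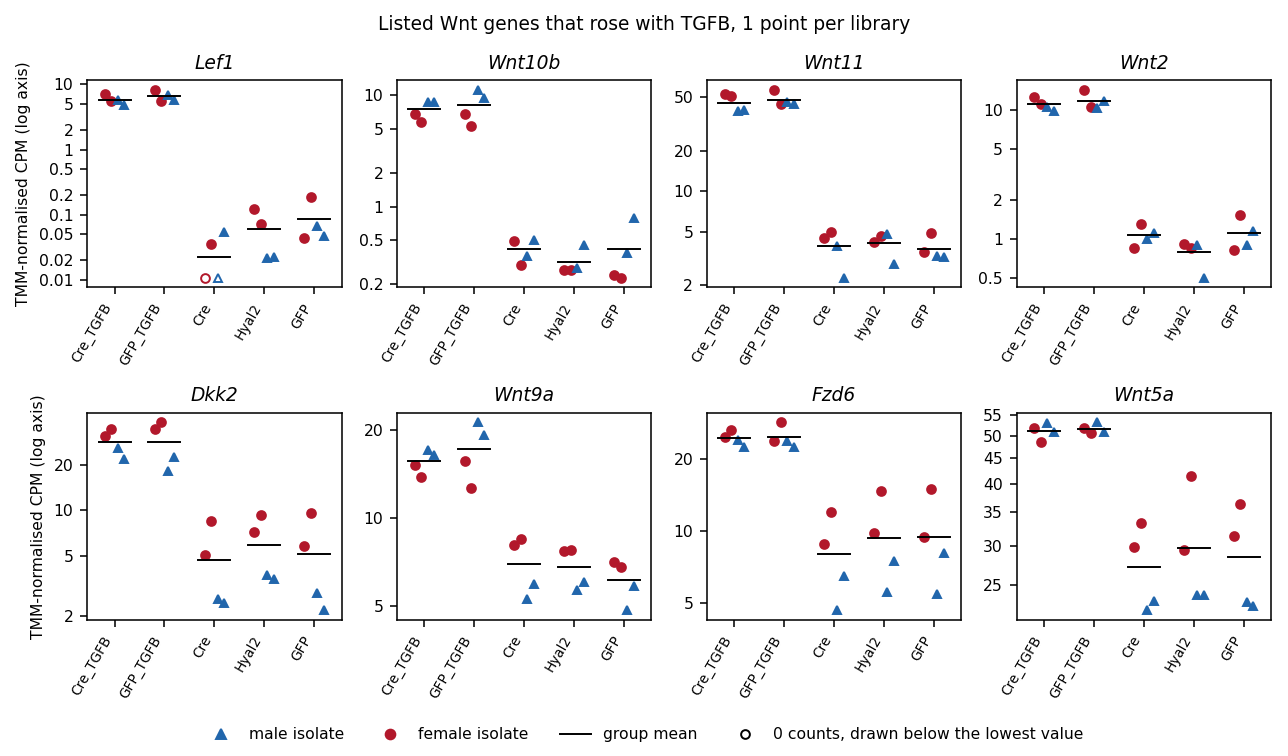
Level of the 8 described Wnt genes that rose with TGFB (vertical axis, TMM-normalised CPM on a log axis) in each library of the 5 groups, with triangles for male and circles for female isolates and lines at the group means. In all 8 panels every library with TGFB lies above every library without it, and open points mark the 2 Cre libraries with 0 counts of Lef1.

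Receptors and co-receptors mostly fell, with 8 of 11 lower (72.7%) and 2 higher (18.2%) in each pair. Of all genes, 28.6% were lower and 26.6% higher in the GFP pair, and 29% and 27.5% in the Cre pair. Fzd4 (ENSMUSG00000049791), a Frizzled receptor known for its role in retinal vessels, had 32.5, 27.9, 33.6 and 31.7 CPM in Cre_TGFB cultures and 31.1, 33, 30.3 and 28.2 CPM in GFP_TGFB cultures. Without TGFB, Fzd4 had 125, 79.8, 179 and 179.8 CPM in Cre cultures, 107, 104, 188 and 182 CPM in Hyal2 cultures and 122, 80.3, 192 and 212 CPM in GFP cultures. Without TGFB the male isolates lay above the female ones in every group, and with TGFB they lay below them in GFP_TGFB cultures and overlapped with them in Cre_TGFB cultures. Fzd4 fell in both pairs of groups, at log2 fold changes of -2.31 (edgeR adjusted p = 1.46e-06, SE 0.29) in GFP_TGFB over GFP and -2.16 (adjusted p = 2.95e-06, SE 0.28) in Cre_TGFB over Cre. Fzd1 (ENSMUSG00000044674), a Frizzled receptor whose promoter is printed above, had 44.9, 45.9, 46 and 50.4 CPM in Cre_TGFB cultures and 47.3, 47.7, 46.1 and 48.7 CPM in GFP_TGFB cultures. Without TGFB, Fzd1 had 114, 89.7, 178 and 159 CPM in Cre cultures, 109.9, 103, 192 and 162 CPM in Hyal2 cultures and 123, 104, 181 and 166 CPM in GFP cultures. The 8 libraries with TGFB lay within 44.9 to 50.4 CPM, while those without it spread from 89.7 CPM to 192 CPM with the male isolates on top. Fzd1 fell in both pairs of groups, at log2 fold changes of -1.6 (edgeR adjusted p = 3.77e-06, SE 0.21) in GFP_TGFB over GFP and -1.53 (adjusted p = 6.05e-06, SE 0.21) in Cre_TGFB over Cre.

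Lrp5 (ENSMUSG00000024913), a co-receptor of the LDL receptor family, had 131, 118, 102 and 100.5 CPM in Cre_TGFB cultures and 124, 115, 109 and 101 CPM in GFP_TGFB cultures. Without TGFB, Lrp5 had 310.5, 242, 346 and 352 CPM in Cre cultures, 306, 243, 354 and 319.5 CPM in Hyal2 cultures and 277, 230.2, 333 and 275 CPM in GFP cultures. No library with TGFB reached the level of any library without it. Lrp5 fell in both pairs of groups, at log2 fold changes of -1.31 (edgeR adjusted p = 1.4e-07, SE 0.14) in GFP_TGFB over GFP and -1.47 (adjusted p = 3.32e-08, SE 0.14) in Cre_TGFB over Cre. Fzd8 (ENSMUSG00000036904), a Frizzled receptor that binds several canonical ligands, had 28.2, 25.2, 24.1 and 25.3 CPM in Cre_TGFB cultures and 27.4, 27.5, 27.1 and 25.2 CPM in GFP_TGFB cultures. Without TGFB, Fzd8 had 65.9, 47.2, 79.4 and 72.2 CPM in Cre cultures, 66.7, 49.3, 83.7 and 71.7 CPM in Hyal2 cultures and 61.3, 46.3, 78 and 69.8 CPM in GFP cultures. Again the groups did not overlap, and isolate 2 was the lowest in all 3 groups without TGFB. Fzd8 fell in both pairs of groups, at log2 fold changes of -1.25 (edgeR adjusted p = 3.13e-06, SE 0.16) in GFP_TGFB over GFP and -1.36 (adjusted p = 1.09e-06, SE 0.16) in Cre_TGFB over Cre.

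Fzd6 (ENSMUSG00000022297), a Frizzled receptor of planar polarity, went the other way and had 24.8, 26.6, 24 and 22.4 CPM in Cre_TGFB cultures and 23.8, 28.5, 23.8 and 22.5 CPM in GFP_TGFB cultures. Without TGFB, Fzd6 had 8.79, 12, 4.63 and 6.46 CPM in Cre cultures, 9.8, 14.7, 5.54 and 7.44 CPM in Hyal2 cultures and 9.44, 14.9, 5.43 and 8.06 CPM in GFP cultures. Isolate 2 was the highest in all 5 groups, and the groups with TGFB lay above those without it. Fzd6 rose in both pairs of groups, at log2 fold changes of 1.38 (edgeR adjusted p = 6.09e-04, SE 0.30) in GFP_TGFB over GFP and 1.61 (adjusted p = 1.35e-04, SE 0.30) in Cre_TGFB over Cre. Fzd9 also rose, at levels under 1 CPM. It had 0.542, 0.665, 0.867 and 0.44 CPM in GFP_TGFB cultures, against 0.467, 0.335, 0.338 and 0.304 CPM in GFP cultures, and these ranges overlapped. Its log2 fold change was 0.80 (edgeR adjusted p = 0.0219, SE 0.28) in the GFP pair and 1.19 (edgeR adjusted p = 0.00121, SE 0.28) in the Cre pair. The call in the GFP pair was lost without GFP_TGFB replicate 3 or GFP replicate 2 or 4 (edgeR adjusted p = 0.0511 to 0.0885), without replicate 2 or 3 of all groups (0.119 and 0.14), and with no filter on low counts (0.0573). It was also lost in the female and in the male isolates alone (edgeR adjusted p = 0.231 and 0.0648), and the call in the Cre pair in the female isolates alone (0.0659).

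The other called receptors fell by smaller amounts. The co-receptor Lrp6 averaged 99.9 ± 4.38 CPM in GFP_TGFB and 175 ± 7.46 CPM in GFP cultures (SD, n = 4 each), with a log2 fold change of -0.81 (edgeR adjusted p = 1.89e-08, SE 0.072). Fzd5 had a log2 fold change of -0.88 (edgeR adjusted p = 3.2e-05, SE 0.14), and the groups did not overlap. Fzd7, at 35.1 to 38.8 CPM in GFP_TGFB against 46.6 to 51.6 CPM in GFP cultures, changed by -0.42 (edgeR adjusted p = 1.7e-05, SE 0.064) on the log2 scale. Fzd2, at 73.3 to 83 against 95.2 to 106 CPM, changed by -0.38 (edgeR adjusted p = 1.7e-04, SE 0.071). These changes are small but larger than the spread between the cultures. Fzd3, a receptor of axon guidance, was the receptor not called, with a log2 fold change of 0.10 (edgeR adjusted p = 0.61, SE 0.16) in the GFP pair and 0.27 (edgeR adjusted p = 0.159, SE 0.16) in the Cre pair, where it was called without replicate 2 of all groups (0.43, adjusted p = 0.00406).

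Secreted antagonists were mostly lower, with 6 of 7 tested members fallen (85.7%) and 1 risen (14.3%) in each pair. Of all genes, 28.6% fell and 26.6% rose in the GFP pair, and 29% and 27.5% in the Cre pair. Sfrp1 (ENSMUSG00000031548), a soluble Frizzled-related protein that captures Wnt ligands, had 327, 349, 360.3 and 336 CPM in Cre_TGFB cultures and 266, 332, 298 and 308 CPM in GFP_TGFB cultures. Without TGFB, Sfrp1 had 1950.3, 1589.5, 2139 and 2194 CPM in Cre cultures, 1776, 1994, 2279 and 2141 CPM in Hyal2 cultures and 1729, 1572, 2141 and 2259 CPM in GFP cultures. The groups were far apart, and without TGFB the male isolates lay above the female ones. Sfrp1 fell in both pairs of groups, at log2 fold changes of -2.68 (edgeR adjusted p = 2.92e-12, SE 0.12) in GFP_TGFB over GFP and -2.52 (adjusted p = 5.87e-12, SE 0.12) in Cre_TGFB over Cre. Frzb (ENSMUSG00000027004), another Frizzled-related antagonist first found in cartilage, had 299, 255, 287 and 219 CPM in Cre_TGFB cultures and 281, 267, 265 and 211 CPM in GFP_TGFB cultures. Without TGFB, Frzb had 1004, 872, 894 and 804 CPM in Cre cultures, 987, 920.4, 820.0 and 802 CPM in Hyal2 cultures and 1016, 914, 894 and 909.5 CPM in GFP cultures. GFP replicate 1 stood above the other GFP libraries, and none of the TGFB libraries came near those without TGFB. Frzb fell in both pairs of groups, at log2 fold changes of -1.87 (edgeR adjusted p = 5.68e-11, SE 0.11) in GFP_TGFB over GFP and -1.75 (adjusted p = 1.23e-10, SE 0.11) in Cre_TGFB over Cre.

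Dkk3 (ENSMUSG00000030772), a divergent member of the Dickkopf family, had 24.5, 22.7, 22.5 and 18.8 CPM in Cre_TGFB cultures and 21.9, 24.4, 21.2 and 17.5 CPM in GFP_TGFB cultures. Without TGFB, Dkk3 had 120.0, 127, 160.0 and 136 CPM in Cre cultures, 123, 133, 156 and 130.0 CPM in Hyal2 cultures and 127, 149, 164 and 129 CPM in GFP cultures. All libraries with TGFB lay below all libraries without it. Dkk3 fell in both pairs of groups, at log2 fold changes of -2.74 (edgeR adjusted p = 2.29e-12, SE 0.12) in GFP_TGFB over GFP and -2.61 (adjusted p = 3.65e-12, SE 0.12) in Cre_TGFB over Cre. Sfrp4 (ENSMUSG00000021319), a Frizzled-related protein of bone and connective tissue, had 2.31, 2.26, 1.55 and 1.19 CPM in Cre_TGFB cultures and 1.98, 2.25, 1.61 and 0.855 CPM in GFP_TGFB cultures. Without TGFB, Sfrp4 had 8.9, 9.03, 8.47 and 7.18 CPM in Cre cultures, 9.8, 7.69, 7.71 and 7.35 CPM in Hyal2 cultures and 8.73, 9.2, 8.83 and 7.92 CPM in GFP cultures. The groups did not overlap, and in both TGFB groups the male isolates were below the female ones. Sfrp4 fell in both pairs of groups, at log2 fold changes of -2.36 (edgeR adjusted p = 4.59e-08, SE 0.22) in GFP_TGFB over GFP and -2.19 (adjusted p = 9.8e-08, SE 0.22) in Cre_TGFB over Cre.

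Dkk2 (ENSMUSG00000028031), a Dickkopf protein that binds Lrp5 and Lrp6, was the antagonist that rose, and had 31.2, 34.4, 26 and 22 CPM in Cre_TGFB cultures and 34.5, 38.4, 18.3 and 22.6 CPM in GFP_TGFB cultures. Without TGFB, Dkk2 had 5.09, 8.57, 2.61 and 2.46 CPM in Cre cultures, 7.16, 9.26, 3.76 and 3.53 CPM in Hyal2 cultures and 5.8, 9.67, 2.84 and 2.18 CPM in GFP cultures. The female isolates lay above the male ones in all 5 groups, while every library with TGFB lay above every library without it. Dkk2 rose in both pairs of groups, at log2 fold changes of 2.45 (edgeR adjusted p = 1.3e-04, SE 0.45) in GFP_TGFB over GFP and 2.58 (adjusted p = 7.37e-05, SE 0.45) in Cre_TGFB over Cre. Sfrp2, another Frizzled-related protein, had 0.0271, 0.139, 0.051 and 0.366 CPM in GFP_TGFB cultures, against 1.16, 1.07, 4.75 and 7.35 CPM in GFP cultures. The male isolates held most of its signal without TGFB. Its log2 fold change was -4.57 (edgeR adjusted p = 2.46e-04, SE 0.89). In GFP_TGFB replicates 1 and 3 Sfrp2 lay below the level of 3 counts (0.0813 and 0.0765 CPM), so the size of this fall is uncertain. Wif1, which binds Wnt ligands outside the cell, had 3 counts over the 4 GFP_TGFB libraries, against 88 in the GFP libraries, a level 26.8-fold lower (exact 95% interval 8.89 to 133) for counting error alone. In the Cre pair it had 2 counts against 97, a level 38.9-fold lower (exact 95% interval 10.5 to 326). Both falls were called (edgeR adjusted p = 9.26e-06 and 6.51e-06).

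Per kilobase of exon (exon lengths of GENCODE vM21, build GRCm38), levels of different genes can be set side by side. In GFP cultures Sfrp1 was the highest member at 440.4 ± 74.9 CPM per kb (SD, n = 4), followed by Frzb at 288 ± 17.2. Their ranges did not overlap. In GFP_TGFB cultures Frzb had 79.1 ± 9.57 and Sfrp1 68.8 ± 6.26 CPM per kb, and their ranges overlapped. Among ligands, GFP_TGFB cultures held 11.5 ± 1.47 CPM per kb of Wnt11, 6.61 ± 0.153 of Wnt5a, 5.18 ± 0.824 of Wnt2 and 5.17 ± 1.15 of Wnt9a. In GFP cultures the same ligands held 0.901 ± 0.183, 3.63 ± 0.857, 0.488 ± 0.141 and 1.85 ± 0.308 CPM per kb, so Wnt5a was the highest ligand without TGFB and Wnt11 the highest with it.

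**Figure D3:**
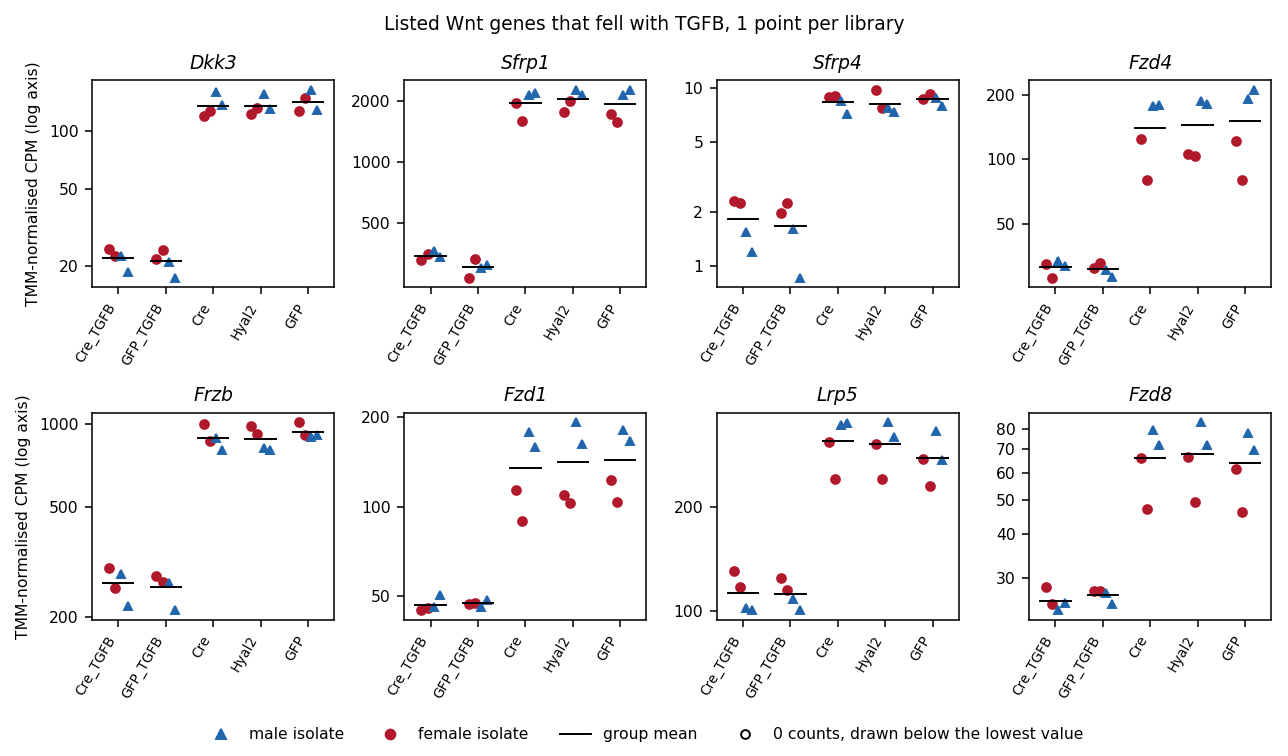
Level of the 8 described Wnt genes that fell with TGFB (vertical axis, TMM-normalised CPM on a log axis) in each library of the 5 groups, with triangles for male and circles for female isolates and lines at the group means. In all 8 panels the 2 groups with TGFB lie below the 3 groups without it, and for Fzd4, Fzd1 and Fzd8 the male isolates stand above the female ones in the groups without TGFB.

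The TCF/LEF factors, which carry beta-catenin to DNA, divided evenly, with Lef1 and Tcf7 higher and Tcf7l1 and Tcf7l2 lower in both pairs. Lef1 (ENSMUSG00000027985), whose promoter is printed above, had 7.19, 5.53, 5.83 and 4.8 CPM in Cre_TGFB cultures and 8.26, 5.57, 6.79 and 5.69 CPM in GFP_TGFB cultures. Without TGFB, Lef1 had 0, 0.0357, 0 and 0.0534 CPM in Cre cultures, 0.123, 0.0727, 0.0215 and 0.0226 CPM in Hyal2 cultures and 0.0444, 0.188, 0.0676 and 0.0468 CPM in GFP cultures. It was close to the detection floor in all 12 libraries without TGFB and well above it in all 8 with TGFB. The counts behind this were 1206 in all in the GFP_TGFB libraries, against 2, 14, 3 and 2 in the GFP libraries, and 1395 in the Cre_TGFB libraries, against 0, 3, 0 and 3 in the Cre libraries. Lef1 rose in both pairs of groups, at log2 fold changes of 6.04 (edgeR adjusted p = 3.64e-10, SE 0.40) in GFP_TGFB over GFP and 7.96 (adjusted p = 8.46e-11, SE 0.47) in Cre_TGFB over Cre. These fitted values depend on the prior count. In the Cre pair the counts alone gave a level 290.0-fold higher (exact 95% interval 133 to 790.0).

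Tcf7, the relative of Lef1 best known from T cells, averaged 1.52 ± 0.306 CPM in GFP_TGFB and 0.376 ± 0.0522 CPM in GFP cultures (SD, n = 4 each), with a log2 fold change of 2.01 (edgeR adjusted p = 3.64e-07, SE 0.22). Tcf7l1 (ENSMUSG00000055799), which acts mainly as a repressor, had 30.8, 35.9, 31.7 and 30.2 CPM in Cre_TGFB cultures and 31.9, 32.8, 32.4 and 27.5 CPM in GFP_TGFB cultures. Without TGFB, Tcf7l1 had 58, 53.3, 72.7 and 73.2 CPM in Cre cultures, 58, 56.1, 82.4 and 72.3 CPM in Hyal2 cultures and 53.5, 50.4, 76 and 67.2 CPM in GFP cultures. Without TGFB the male isolates lay above the female ones in each group, and all libraries with TGFB lay lower. Tcf7l1 fell in both pairs of groups, at log2 fold changes of -0.99 (edgeR adjusted p = 8.15e-06, SE 0.14) in GFP_TGFB over GFP and -1.0 (adjusted p = 6.72e-06, SE 0.14) in Cre_TGFB over Cre. Tcf7l2, the family member known from the intestine, averaged 10.8 ± 0.635 CPM in GFP_TGFB and 15.7 ± 2.69 CPM in GFP cultures, with a log2 fold change of -0.53 (edgeR adjusted p = 5.56e-04, SE 0.11).

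edgeR without the replicate block called 0 of the 3 tested feedback genes in either pair, against 55.3% of all genes in the GFP pair and 56.5% in the Cre pair. Other settings called Nkd2 and Axin2. Axin2 (ENSMUSG00000000142), a scaffold of the beta-catenin destruction complex and a standard readout of canonical signalling, had 1.19, 1.21, 0.812 and 0.778 CPM in Cre_TGFB cultures and 1.41, 1.04, 0.791 and 0.928 CPM in GFP_TGFB cultures. Without TGFB, Axin2 had 1.22, 0.858, 2 and 1.69 CPM in Cre cultures, 1.28, 0.824, 2.36 and 1.74 CPM in Hyal2 cultures and 1.2, 1.13, 2.14 and 1.78 CPM in GFP cultures. The groups overlapped: the male isolates were lower with TGFB than without it, while the female isolates spanned 1.04 to 1.41 CPM with TGFB and 0.824 to 1.28 CPM without it. Over all isolates its log2 fold change was -0.58 (edgeR adjusted p = 0.134, SE 0.32) in the GFP pair and -0.50 (edgeR adjusted p = 0.18, SE 0.31) in the Cre pair, where it was called without replicate 2 of all groups (-0.79, adjusted p = 0.0376). In the male isolates alone it was called in both pairs. Nkd2, which binds Dishevelled and dampens the signal, averaged 39.7 ± 9.5 CPM in GFP_TGFB and 59.1 ± 18.6 CPM in GFP cultures (SD, n = 4 each). It lay lower with TGFB in 4 of 4 isolates in both pairs. edgeR without the replicate block gave log2 fold changes of -0.58 (edgeR adjusted p = 0.0525, SE 0.24) in the GFP pair and -0.50 (adjusted p = 0.0856, SE 0.24) in the Cre pair, which missed the threshold. With the replicate block edgeR called it lower in both (adjusted p = 9.15e-04 and 0.00252). It was also called with the female isolates alone in both pairs (edgeR adjusted p = 0.00512 and 0.0118), and in the GFP pair by DESeq2 (adjusted p = 0.0398) and with library totals (edgeR adjusted p = 0.0304). In the GFP pair edgeR called it too when GFP_TGFB replicate 1, Cre replicate 2 or 3, Hyal2 replicate 3 or GFP replicate 3 or 4 was left out (0.0301 to 0.0444), and in the Cre pair without Cre replicate 3 (0.0374).

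Nkd1, the other Naked cuticle gene, averaged 5.83 ± 1.26 CPM in GFP_TGFB and 5.63 ± 2.34 CPM in GFP cultures, with a log2 fold change of 0.053 (edgeR adjusted p = 0.902, SE 0.32). Notum was counted 1 time in the Cre_TGFB and 2 times in the GFP_TGFB libraries, against 35, 36 and 27 times in the Cre, Hyal2 and GFP libraries; it was not tested. Among the R-spondins, which amplify Wnt signals at the receptor, Rspo2 fell. It had 6 counts over the 4 GFP_TGFB libraries, against 153 in the GFP libraries, a level 23.3-fold lower (exact 95% interval 10.5 to 64.6) for counting error alone, and edgeR gave adjusted p = 1.89e-04. Its log2 fold change in the Cre pair was -3.23 (edgeR adjusted p = 8.15e-04, SE 0.72). Rspo3 averaged 0.646 ± 0.466 CPM in GFP_TGFB and 0.847 ± 0.369 CPM in GFP cultures, and its log2 fold change of -0.36 (edgeR adjusted p = 0.592, SE 0.54) was not called. Rspo1 lay near the floor, at 0.0542 to 0.255 and 0.0268 to 0.293 CPM.

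Markers of other cell types moved with TGFB too. Their counts of called genes are for GFP_TGFB over GFP, where 28.6% of all genes fell and 26.6% rose. The summed level of 11 mesothelial markers was 202 to 316 CPM with TGFB, against 693 to 848 CPM without it, and 4 of 7 tested markers fell in GFP_TGFB over GFP. Most of that sum was Aldh1a2 and Aldh1a1, while the defining mesothelial genes were near 0, with Msln at 0.0244 to 0.222 in GFP_TGFB and 0 to 0.362 CPM in GFP cultures and Upk3b at 0 to 0.0554 and 0.258 to 0.511 CPM. The 10 endothelial markers summed to 17.1 to 26.2 CPM with and 38.3 to 44.8 CPM without TGFB, and 5 of 10 fell. The 12 leukocyte markers summed to 109 to 279.6 and 163 to 443 CPM, and 5 of 10 tested fell (Ptprc, Cd68, Cd14, Mrc1 and Fcer1g). Most of that sum was the macrophage gene Lyz2, with 223, 169.5, 114 and 89.6 CPM in GFP_TGFB and 332, 226, 193 and 144 CPM in GFP cultures, and the T and B cell genes Cd3e and Cd79a reached at most 0.164 CPM. Schwann cell markers summed to 4.05 to 6.86 CPM with and 13 to 19.6 CPM without TGFB (2 of 5 tested fell, Sox10 at most 0.0542 CPM in the GFP pair), and adipocyte markers to 9.78 to 13.1 and 13.7 to 19.1 CPM (2 of 3 tested fell, Lep at 0 counts in the GFP pair). Pericyte and smooth muscle markers summed to 637 to 783 CPM with and 573 to 819 CPM without TGFB, with 4 of 10 higher and 2 lower. Cardiomyocyte markers summed to 1.22 to 3.48 and 2.53 to 4.67 CPM, with Myh6 at 0 counts in the GFP pair and 1 of 2 tested lower. Of the 11 fibroblast markers, 8 fell and 2 rose. With the replicate block, 10 of 10 leukocyte and 8 of 10 endothelial markers were called lower, as were 5 of 7 mesothelial markers, with 1 higher. That fit called 32.1% of all genes lower and 29.8% higher. The part of these cells in the Wnt results was not tested.

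The TGFB effect on some Wnt genes differed between the male and the female isolates. The difference was tested as the log2 fold change in males minus that in females in GFP_TGFB over GFP, and 2 of the 36 members passed edgeR (1 higher and 1 lower, against 1.38% of all genes tested, 0.928% higher and 0.454% lower). With the replicate block 8 passed, 2 higher and 6 lower, against 6.05% of all genes, 3.23% higher and 2.82% lower. Each sex is represented by 2 isolates, so sex and isolate cannot be told apart. For Wnt9a the log2 fold change was 1.92 in males and 1.02 in females, a difference of 0.90 (edgeR adjusted p = 0.0192, SE 0.17). For Fzd4 it was -2.79 in males and -1.66 in females, a difference of -1.13 (edgeR adjusted p = 0.0449, SE 0.26). Both TGFB effects were thus larger in the male isolates. The Wnt9a call was lost when GFP_TGFB replicate 2, 3 or 4 or GFP replicate 2 or 3 was left out (edgeR adjusted p = 0.0536 to 0.135), and without replicate 2, 3 or 4 of all groups (0.124 to 0.393). The Fzd4 call held in 4 of 24 such fits, those without replicate 1 of all groups, GFP replicate 1 or Cre replicate 1 or 2, and its adjusted p reached 0.401 in the others.

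A further 6 members passed with the replicate block but not without it. Of these, Wnt5a, Fzd1 and Tcf7l1 also passed with DESeq2 (adjusted p = 0.0243, 0.0223 and 0.0147), and these and Fzd8 passed in edgeR with no filter on low counts and in some fits with a replicate left out. Other members passed edgeR only in such fits. They were Fzd6 and Dkk2 with no filter (adjusted p = 0.0168 and 0.00573), and Dkk2 and Sfrp1 without replicate 1 of all groups (0.0469 and 0.046). Wnt5a had a log2 fold change of 1.19 in males and 0.59 in females (difference: edgeR adjusted p = 0.0862, with the replicate block 0.0301). Fzd1 changed by -1.87 in males and -1.25 in females (difference: edgeR adjusted p = 0.0677, with the replicate block 0.0178). Fzd8 changed by -1.5 in males and -0.97 in females (difference: edgeR adjusted p = 0.269, with the replicate block 0.0354). In these genes the change was again larger in the male isolates. Lrp5 stood at -1.54 in males and -1.08 in females (difference: edgeR adjusted p = 0.234, with the replicate block 0.0251), and Tcf7l1 at -1.26 in males and -0.68 in females (difference: edgeR adjusted p = 0.0537, with the replicate block 0.0125). Axin2 had the widest gap of the 8, with a log2 fold change of -1.19 in males (edgeR adjusted p = 0.00145) and 0.053 in females (adjusted p = 0.893), a gap of -1.24 (difference: edgeR adjusted p = 0.103, with the replicate block 0.0345). In the male isolates Axin2 lay at 0.791 and 0.928 CPM in GFP_TGFB, against 2.14 and 1.78 CPM in GFP cultures. In the female isolates it lay at 1.41 and 1.04 CPM in GFP_TGFB, against 1.2 and 1.13 CPM in GFP cultures. In the Cre pair the male isolates alone gave Axin2 a log2 fold change of -1.21 (edgeR adjusted p = 0.00106), and the difference between the sexes was not tested there.

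Levels of the male and female libraries were also set side by side. In the 12 libraries without TGFB, which are 3 cultures of each isolate, the 6 male and 6 female libraries did not overlap for 18 of the 36 members: 13 were higher in males (8.4% of all genes tested) and 5 lower (7.71%). The 13 were Wnt4, Wnt5b, Fzd1, Fzd4, Fzd5, Fzd8, Sfrp1, Sfrp2, Tcf7l1, Tcf7l2, Axin2, Nkd1 and Rspo2, and the 5 were Wnt5a, Wnt9a, Fzd6, Dkk2 and Nkd2. In the 8 libraries with TGFB, 2 were higher in males (Wnt9a and Wnt10b, against 12.6% of all genes) and 6 lower (Lrp5, Sfrp4, Dkk2, Wif1, Axin2 and Rspo3, against 10.9%). For Wif1 this rests on 3 counts in the GFP_TGFB and 2 in the Cre_TGFB libraries, below the floor in each library. Without TGFB, Wnt4 lay at 2.65 to 4.66 CPM (median 3.18) in male and 0.8 to 1.31 CPM (median 0.902) in female libraries, and Sfrp2 at 4.75 to 7.35 CPM (median 6.36) in male and 1.07 to 1.58 CPM (median 1.29) in female libraries. With TGFB, Wnt4 lay at 0.0738 to 0.181 CPM (median 0.125) in male and 0.0651 to 0.154 CPM (median 0.144) in female libraries, so that the sexes overlapped. The order of the sexes changed for Axin2: without TGFB it lay at 1.69 to 2.36 CPM (median 1.89) in male and 0.824 to 1.28 CPM (median 1.16) in female libraries, and with TGFB at 0.778 to 0.928 CPM (median 0.801) in male and 1.04 to 1.41 CPM (median 1.2) in female libraries.

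**Figure D4:**
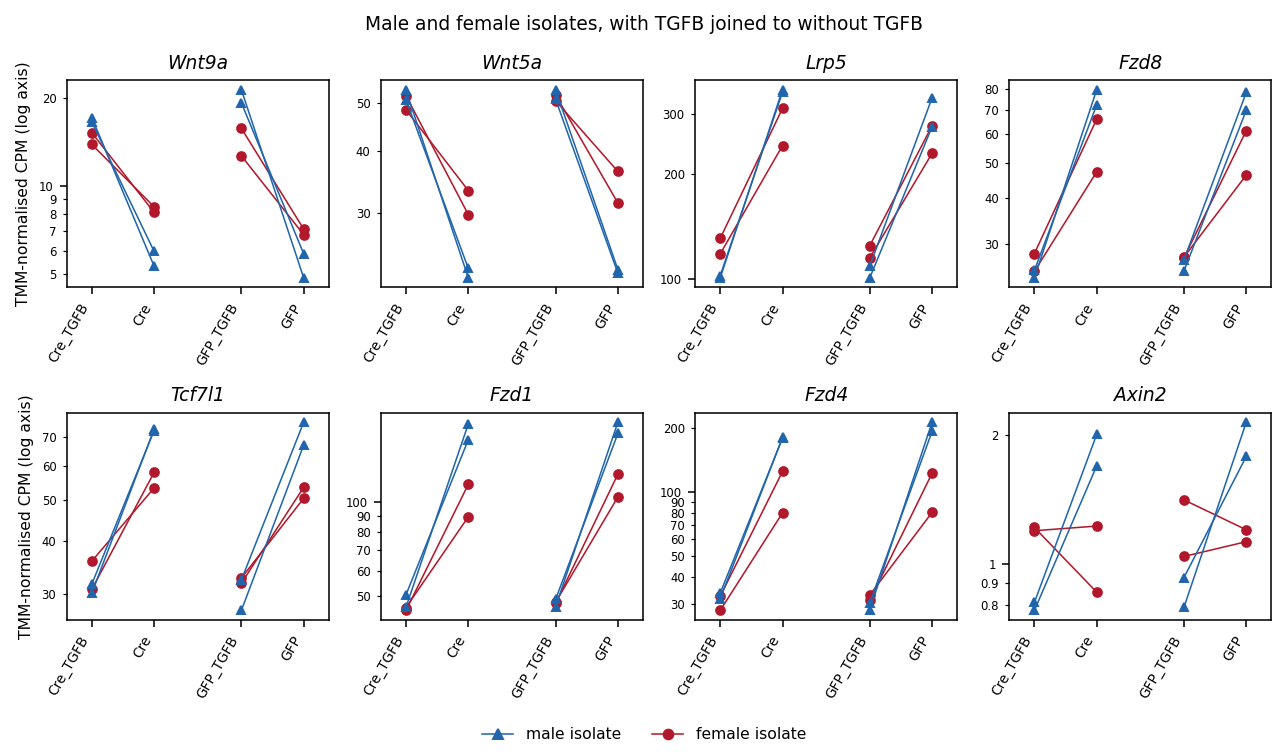
Level (vertical axis, TMM-normalised CPM on a log axis) of the 8 Wnt genes whose TGFB effect differed between the sexes with or without the replicate block, for male (blue triangles) and female (red circles) isolates. Lines join the culture with TGFB to the culture without TGFB of the same isolate, for the Cre pair on the left and the GFP pair on the right of each panel. The Axin2 lines of both male isolates lie higher without than with TGFB, while those of the female isolates run up in some cultures and down in others.

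Deleting or overexpressing Hyal2 gave no called change in any Wnt gene. In Cre over GFP, 0 of 36 members passed edgeR, against 0.0064% of all genes tested, which is 1 gene, Hyal2 itself. In Cre_TGFB over GFP_TGFB and in Hyal2 over GFP, 0 of 36 passed as well, with the same 0.0064% of all genes. Before adjustment 1, 0 and 1 members had p under 0.05 in these 3 comparisons. DESeq2, limma-voom and edgeR with the replicate block also called 0 members in each, the block calling 0.269% of all genes in Cre over GFP. The log2 fold changes ran over -2.1 to 0.31 in Cre over GFP, -0.71 to 1.2 in Cre_TGFB over GFP_TGFB and -0.73 to 0.23 in Hyal2 over GFP. With the replicate block, which sets each isolate against itself, the 95% interval of the log2 fold change lay within 1 of 0 for 34, 31 and 34 of the 36 members in these 3 comparisons, and within 0.5 for 18, 23 and 20. Lef1 and Rspo1 were outside 1 in Cre over GFP and in Hyal2 over GFP, and Wnt4, Sfrp2, Wif1, Rspo1 and Rspo2 in Cre_TGFB over GFP_TGFB. Without the block the intervals held the spread between isolates as well, and lay within 1 for 28, 30 and 28 members and within 0.5 for 15, 18 and 14. The libraries of the groups did not overlap for 0 members in these comparisons, against 2.01% of all genes higher and 1.67% lower in Cre over GFP, 0.717% and 0.851% in Cre_TGFB over GFP_TGFB, and 0.563% and 0.685% in Hyal2 over GFP.

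The member with the smallest p in Cre over GFP was Lef1, with 0, 3, 0 and 3 counts in the Cre libraries, against 2, 14, 3 and 2 in the GFP libraries. Its log2 fold change was -2.09 (95% interval -3.56 to -0.62, edgeR adjusted p = 0.767), and over the other settings the adjusted p was 0.242 to 1. Lef1 lay lower with Cre in 3 of 4 isolates, at 0 to 3 counts with Cre and 2 to 14 with GFP virus. The counts alone gave a level 4.86-fold lower (exact 95% interval 1.9 to 14.7), an interval that covers counting error only. In Hyal2 over GFP the smallest p was that of Wnt2, with 0.911, 0.849, 0.902 and 0.498 CPM in Hyal2 cultures, against 0.822, 1.53, 0.901 and 1.15 CPM in GFP cultures, a log2 fold change of -0.50 (edgeR adjusted p = 1, and 0.631 to 1 over the other settings). These ranges overlapped. For the abundant antagonist Sfrp1, the log2 fold change was 0.032 in Cre over GFP, 0.19 in Cre_TGFB over GFP_TGFB (higher in 4 of 4 isolates) and 0.089 in Hyal2 over GFP, none of them called (edgeR adjusted p = 0.99, 1 and 1).

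Paired by isolate, 4 members lay higher with Cre than with GFP virus in all 4 isolates (Wnt9a, Fzd8, Lrp5 and Nkd2) and 8 lower (Fzd1, Fzd3, Fzd6, Fzd7, Fzd9, Lrp6, Frzb and Wif1). With TGFB present, 2 lay higher in all 4 isolates (Sfrp1 and Nkd2), and Wnt5a, Fzd7 and Lef1 lay lower in all 4. Wif1 lay lower in isolates 1 and 2 and had a difference of 0 in isolates 3 and 4. With Hyal2 overexpression 5 lay higher (Wnt9a, Fzd2, Fzd8, Lrp5 and Tcf7l1) and 0 lower. None of these passed the test. The share of all genes lying on 1 side in all 4 isolates was not computed, so these counts are a description only. Some differences were very small, such as -0.061 to -0.0043 on the log2 scale for Wnt5a in Cre_TGFB over GFP_TGFB. The interaction, which is the Cre effect with TGFB minus the Cre effect without it, called 0 of 36 members and 0% of all genes, and 1 member had p under 0.05 before adjustment. That member was Lef1, at 1.93 on the log2 scale (edgeR adjusted p = 1, and 0.708 to 1 over the other settings), and it rests on the few counts of the groups without TGFB. DESeq2, limma-voom and the replicate block called 0 members as well.

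**Figure D5:**
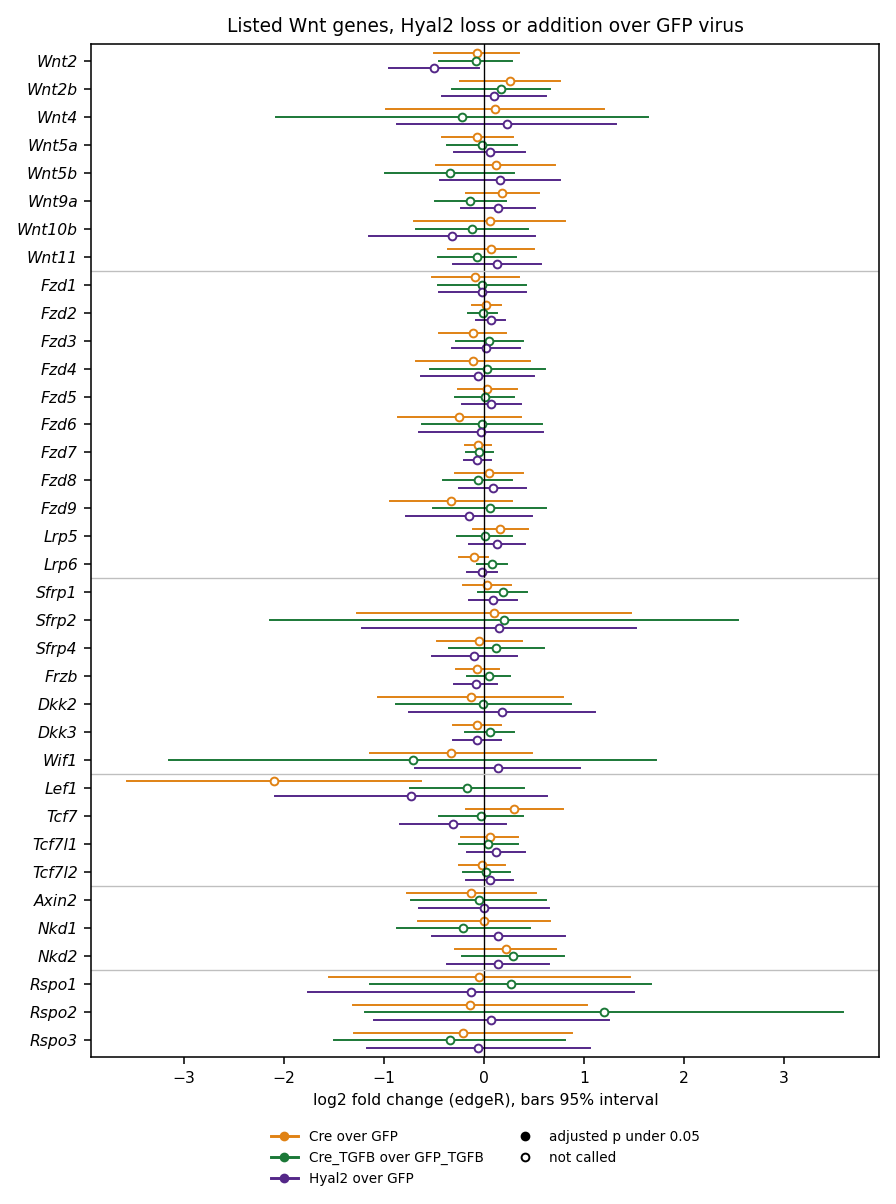
Log2 fold change of each tested Wnt gene (horizontal axis, bars are 95% intervals from edgeR) in Cre over GFP (orange), Cre_TGFB over GFP_TGFB (green) and Hyal2 over GFP (purple), n = 4 cultures a group, grouped by role as in the plot of TGFB effects. All points are open, meaning that 0 of 36 members passed an adjusted p under 0.05 in any of the 3 comparisons.

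Other genes of the pathway were read from lists outside the 39, which were also chosen with earlier results of these data known. Of 10 further ligand genes, 9 had too few counts to be tested, and the tested one, Wnt1, rose. Wnt1, the founding canonical ligand, had 3.41, 2.37, 4 and 3.35 CPM in GFP_TGFB cultures, against 0, 0.0134, 0.0225 and 0 CPM in GFP cultures. These are 591 counts against 2, a level 323-fold higher (exact 95% interval 89 to 2670) for counting error alone (edgeR adjusted p = 6.08e-10). It had 665 counts against 5 in the Cre pair (adjusted p = 6.23e-10). Of 16 tested genes of Wnt secretion and co-reception, 5 rose and 9 fell in GFP_TGFB over GFP (31.2% and 56.2%, against 26.6% and 28.6% of all genes). Risers included the R-spondin receptor Lgr6 (161 ± 10.5 CPM in GFP_TGFB and 13.9 ± 5.38 CPM in GFP cultures, log2 change 3.53, edgeR adjusted p = 1.56e-09) and the ligase that removes Frizzled receptors, Znrf3 (log2 change 1.09, edgeR adjusted p = 1.01e-07). Fallers included Reck (log2 change -1.38, edgeR adjusted p = 1.4e-09), which serves Wnt7 signalling, and Mcc (log2 change -1.04, edgeR adjusted p = 4.72e-06).

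All 5 tested antagonists outside the 39 fell, against 28.6% of all genes. They included the membrane-bound inhibitor Apcdd1 (log2 change -2.23, edgeR adjusted p = 9.79e-08) and the IGF-binding protein Igfbp4 (55.1 ± 8.28 CPM in GFP_TGFB and 295 ± 132 CPM in GFP cultures, log2 change -2.42, edgeR adjusted p = 1.03e-05). Of 22 genes of the beta-catenin destruction complex and Dishevelled, 10 rose and 6 fell in Cre_TGFB over Cre (45.5% and 27.3%, against 27.5% and 29% of all genes). In GFP_TGFB over GFP, 7 rose and 4 fell (31.8% and 18.2%, against 26.6% and 28.6% of all genes). The share called was no higher than the background in the GFP pair only. Among them were Csnk1e (log2 change 0.72, edgeR adjusted p = 1.38e-06), a casein kinase, Fbxw11 (log2 change 0.32, edgeR adjusted p = 1.1e-04), a ubiquitin ligase subunit, Apc2 (log2 change -1.9, edgeR adjusted p = 6.7e-08), a scaffold, and Dact1 (log2 change -1.04, edgeR adjusted p = 3.51e-06), a Dishevelled-binding protein. Of 16 nuclear cofactors of beta-catenin, 1 rose and 9 fell (6.25% and 56.2%, against 26.6% and 28.6% of all genes). The riser was the co-repressor Tle1 (log2 change 0.76, edgeR adjusted p = 9.44e-08), and the fallers included Bcl9l (log2 change -0.90, edgeR adjusted p = 7.48e-08), a beta-catenin partner, and Tle2 (log2 change -1.97, edgeR adjusted p = 3.6e-06), a co-repressor.

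In the polarity and calcium branch, 4 of 24 tested genes rose and 12 fell (16.7% and 50%, against 26.6% and 28.6% of all genes). The kinase Nlk (log2 change 0.80, edgeR adjusted p = 1.06e-06) and the calcium-dependent factor Nfatc1 (log2 change 0.47, edgeR adjusted p = 5.83e-04) were higher, and the polarity protein Prickle1 (log2 change -2.14, edgeR adjusted p = 1.58e-11) and the calmodulin kinase Camk2g (log2 change -0.86, edgeR adjusted p = 3.32e-09) were lower. Of 25 tested genes described elsewhere as beta-catenin targets, 6 rose (24%, against 26.6% of all genes) and 10 fell (40%, against 28.6%). With the replicate block 9 of the 25 rose and 11 fell, against 29.8% and 32.1% of all genes. Examples were Ccn4 (357 ± 51.3 CPM in GFP_TGFB and 40.9 ± 13.7 CPM in GFP cultures, log2 change 3.12, edgeR adjusted p = 4.7e-08), a matricellular protein also called Wisp1, and Ccn5 (77.1 ± 20.3 CPM in GFP_TGFB and 854 ± 74.5 CPM in GFP cultures, log2 change -3.47, edgeR adjusted p = 2.45e-10), its relative also called Wisp2, as well as the receptor Ephb2 (log2 change -1.68, edgeR adjusted p = 2.95e-12). In Cre over GFP, Cre_TGFB over GFP_TGFB and Hyal2 over GFP, 0 genes of these 7 lists were called by edgeR, with or without the replicate block, and 4, 0 and 3 had p under 0.05 before adjustment.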

How the data were processed

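Libraries were made from DNase-treated Trizol RNA with the NEBNext Ultra II kit, per the labels' protocols. The deposited values are raw whole-number counts per Ensembl gene, made by the authors with HTSeq 0.10.0 on build GRCm39, per the submitters' processing notes. Not given in the sources used here are the aligner, annotation release and strand setting, so reads of overlapping or antisense genes may be mixed. All columns were mapped to samples by name, with 0 columns left unmapped. Of 55414 identifiers, 52081 matched a mouse symbol.

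Counts were scaled by TMM and tested over 20 libraries with edgeR 4.0.16 (robust quasi-likelihood test, 1 mean per group; R 4.3.3), after filterByExpr (minimum count 10 in 4 libraries, minimum total 15) left 15624 genes. The script was tested on simulated counts. Alternatives were a replicate block, DESeq2 1.42.0, limma-voom (limma 3.58.1), other scalings, no filter, 1 sex and leaving out replicates. Standard errors were derived from the F statistic. Intervals of count ratios and floors cover counting error only. GFP_TGFB over GFP, Cre over GFP and Hyal2 over GFP share the GFP libraries.

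The replicate numbers in the sample titles were used to pair the libraries. Deviations from group means of the 40 same-number pairs correlated at r = 0.114 to 0.712 (median 0.41). For the 120 other-number pairs the median r was -0.249 and the highest 0.442, so the ranges overlapped. By this measure 20 of 20 libraries were closest to a library of their own number. No 2 of the 30 replicate pairs were identical (lowest chi-square per degree of freedom 8.14). Groups are repeat cultures of 4 isolates, so p-values measure the spread between these cultures.

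The members and lists were chosen with earlier results of these data known. Values of every library are given for members called in GFP_TGFB over GFP whose higher group averaged 5 CPM or more, the 8 with the largest change in each direction, and for members called in the other comparisons. Other pathway lists contribute up to 4 genes of at least 5 CPM with the smallest p. Wnt1, Wnt4, Wnt5b, Sfrp2, Fzd9, Wif1 and the 4 promoters were added after their values were seen.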

Additional observations from a re-analysis of the deposited data

Results flagged for a closer look

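Single libraries stood apart from the rest of their group in 6 of 90 groups of 4 examined over 18 members, and chance picks about 1 in 20 groups. Lef1 had 0.188 CPM in GFP replicate 2, above the other GFP libraries. In Hyal2 replicate 4, Wnt10b was high at 0.452 CPM and Wnt2 low at 0.498 CPM. Wnt11 was high at 56.8 CPM in GFP_TGFB replicate 1. Sfrp4 was high at 9.80 CPM in Hyal2 replicate 1, and Frzb at 1016 CPM in GFP replicate 1.

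The TGFB effect differed between male and female isolates for 2 members by a test of the difference itself, as a log2 difference of 0.90 for Wnt9a and -1.13 for Fzd4. Each sex is 2 isolates. The Wnt9a call was lost when some single libraries were left out, and the Fzd4 call held in only 4 of 24 fits leaving out a library or a replicate.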

How the results depend on the processing

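The counts of members called in the 2 TGFB comparisons, the 3 Hyal2 comparisons and the interaction stayed within 1.5 times under every alternative run, with 0 called values reversed. In GFP_TGFB over GFP, 16 single values lost and 11 gained a call out of 1151, and in Cre_TGFB over Cre 2 lost and 6 gained one. The replicate block, paired by isolate, gave 10 members higher and 20 lower in GFP_TGFB over GFP, the addition being Nkd2, and the same 0 in the Hyal2 comparisons. Across all genes it raised the calls in Cre over GFP to 42 from 1. For the sex difference, the members called higher and lower were 2 and 3 with DESeq2, 4 and 4 with no filter, 2 and 6 with the replicate block, and 0 to 3 and 0 to 4 on leaving out replicates, against 1 and 1 as reported; the cause was not tested. There, 28 single values lost and 29 gained a call. In the Cre pair, leaving out replicate 2 called Fzd3 (0.43, edgeR adjusted p = 0.00406) and Axin2 (-0.79, 0.0376). Values that were not called also changed sign in 84 to 109 of 1151 cases in each Hyal2 comparison and the interaction. Depth limits Wnt16, Dkk1, Notum, Rspo1, Wif1 and Lef1 without TGFB, which rest on few counts. The same holds for Wnt4, Sfrp2 and Rspo2 with TGFB.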

Other observations

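Most of the Wnt genes varied less between isolates with TGFB than without it. The median SD over the 4 isolates (log2 CPM) of the 36 tested members was 0.17 in Cre_TGFB, 0.23 in GFP_TGFB, 0.35 in Cre, 0.35 in Hyal2 and 0.33 in GFP cultures, against 0.16, 0.14, 0.17, 0.20 and 0.19 over all genes tested. The SD was lower in GFP_TGFB than in GFP cultures for 27 members (75%, against 61.3% of all genes) and lower in Cre_TGFB than in Cre cultures for 29 members (80.6%, against 53.2%). Wnt5a, the polarity ligand, had an SD of 0.033 in GFP_TGFB and 0.34 in GFP cultures, and Fzd1, a Frizzled receptor, one of 0.033 in GFP_TGFB and 0.37 in GFP cultures. This is a description, with no test.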
